A study of Mus musculus with 7 samples.

Results

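The 9 genes Nr3c1, Nr3c2, Fkbp5, Sgk1, Crhr1, Crhr2, Crhbp, Hsd11b1 and Oxtr encode corticosteroid receptors, regulators and targets of these receptors, and receptors and binding proteins of stress-related peptides. Their 5-methylcytosine (5mC) regions were all deposited active regions that overlapped a gene body or the 1 kb on either side of it, which gave 55 of the 133337 active regions. The regions were thus chosen by called intervals of the 6 libraries and by their place alone. The gene list was proposed with earlier results of these data known, including the comparison of KCl with untreated cells, so summary values over it are descriptions.

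Glucocorticoids and mineralocorticoids act through 2 nuclear receptors that bind DNA as ligand-activated transcription factors, and the hippocampus is known for high levels of both. In the cytosol the receptors sit in a chaperone complex, which Fkbp5 joins as an inhibitory co-chaperone. On binding hormone the receptors move to the nucleus and induce genes such as Sgk1 and Fkbp5, often through a palindromic glucocorticoid response element. 5mC at CpG sites is usually low at CpG-rich promoters and high along transcribed gene bodies.

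Hippocampal neurons of C57BL/6J mouse embryos (E18.5) were kept in culture for 11 days. The 3 KCl libraries came from cells given 55 mM KCl, which depolarises neurons, for 4 h, and the 3 untreated libraries from cells without it. Both groups grew in neurobasal medium with L-glutamic acid and, from the first medium change, AraC, which acts against dividing cells. How many embryos a culture held is not stated, and the labels leave unsaid if replicates are separate cultures. The p-values below therefore rest on the spread among libraries, part or all of which may be technical. DNA was enriched with an antibody to 5mC and sequenced (MeDIP-seq), and a pooled input library was not analysed here.

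The libraries differed in how much was called. KCl replicates 1 to 3 held 93470, 60949 and 34834 intervals, and untreated replicates 1 to 3 held 87151, 87302 and 72947, so KCl replicate 3 stood apart. The depth behind the heights is unknown, as no read totals were at hand. A summit height is the authors' whole-number peak height of an interval. Height depends on CpG density as well as methylation, and fewer methylated cells cannot be told apart from less methylation per cell. As to the labelled cell type, 2 of 7 neuron, 2 of 6 astrocyte, 2 of 6 oligodendrocyte-lineage and 2 of 6 microglia marker genes carried 5mC regions at a gene end (1 kb to either side), against 26.0% of protein-coding genes. 5mC at these genes is no measure of their expression.

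Promoters of the 8 genes matched in the RefSeq table (GRCm38.p6, the coordinates of mm10) carried no region, like most promoters of protein-coding genes. The table gave 13 annotated start sites, 6 of them of Sgk1, each with a window from 250 bases before to 50 bases after it. Of the 13 windows, 0 overlapped a region, against 3.63% of 21263 windows of protein-coding genes. In so few windows a count of 0 is near that share and does not set these promoters apart. A region lay within 1 kb of 2 of the 13 start sites, those of Crhbp and Oxtr, against 11.0% of all 21263. The windows with the most CpG sites belonged to Fkbp5 (32), Crhr1 (31) and 1 Sgk1 start site (28), and those with the fewest to other Sgk1 start sites (3 and 4). Across protein-coding genes, windows with 5 to 9 CpG sites overlapped a region most often (7.91%) and those with 30 or more least often (1.40%).

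**Figure D1:**
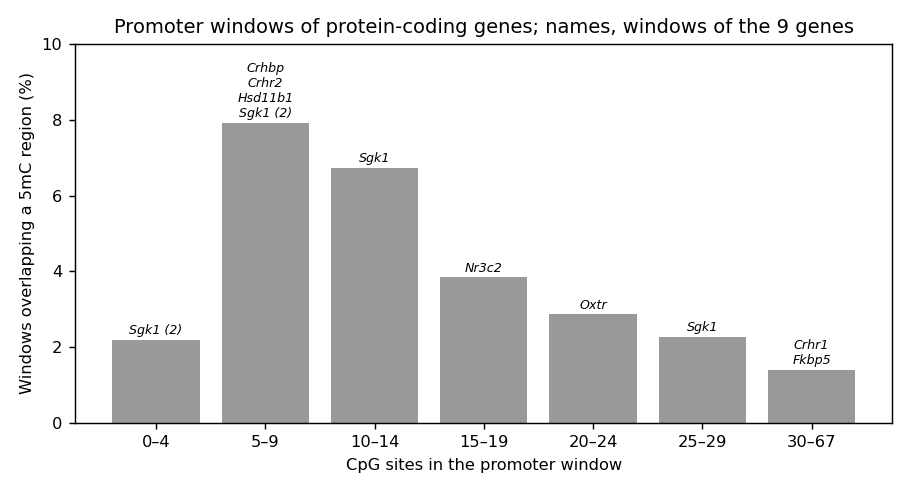
Share of promoter windows of protein-coding genes that overlapped a 5mC region (vertical axis, %) by the number of CpG sites in the window (horizontal axis). Gene names mark the bins of the 13 windows of Fkbp5, Crhr1, Crhr2, Crhbp, Hsd11b1, Nr3c2, Oxtr and Sgk1, of which 0 overlapped a region; the tallest bar, 5 to 9 CpG sites, reaches 7.91%.

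The 4 windows below, from the RefSeq table in GRCm38.p6, show the promoters nearest to a region, a CpG-rich promoter far from any region, and a response element. They are written 5′ to 3′ on the gene's strand. In the first 3 the capitals mark CpG sites. Crhbp, chr13:95444782-95445081, minus strand, has 9 CpG sites, and the nearest region began 124 bp upstream of the window. Oxtr, chr6:112489776-112490075, minus strand, has 20, and the nearest region lay 504 bp downstream. Fkbp5, chr17:28486100-28486399, minus strand, has 32, and the nearest region lay 35382 bp into the gene. In the fourth, an Sgk1 window at chr10:21993640-21993939, plus strand, the capitals mark a match to the response element.
Crhbp: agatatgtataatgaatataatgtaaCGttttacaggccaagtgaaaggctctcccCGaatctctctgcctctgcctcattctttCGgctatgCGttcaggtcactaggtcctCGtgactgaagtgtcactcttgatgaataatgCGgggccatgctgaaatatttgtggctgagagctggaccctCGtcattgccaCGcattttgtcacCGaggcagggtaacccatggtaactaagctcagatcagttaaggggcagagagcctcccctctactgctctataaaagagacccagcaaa
Oxtr: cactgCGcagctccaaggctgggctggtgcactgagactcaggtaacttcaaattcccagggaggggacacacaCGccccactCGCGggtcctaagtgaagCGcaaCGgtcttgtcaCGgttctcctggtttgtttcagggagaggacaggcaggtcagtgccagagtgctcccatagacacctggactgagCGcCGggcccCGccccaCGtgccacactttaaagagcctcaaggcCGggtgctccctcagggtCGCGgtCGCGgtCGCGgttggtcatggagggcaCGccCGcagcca
Fkbp5: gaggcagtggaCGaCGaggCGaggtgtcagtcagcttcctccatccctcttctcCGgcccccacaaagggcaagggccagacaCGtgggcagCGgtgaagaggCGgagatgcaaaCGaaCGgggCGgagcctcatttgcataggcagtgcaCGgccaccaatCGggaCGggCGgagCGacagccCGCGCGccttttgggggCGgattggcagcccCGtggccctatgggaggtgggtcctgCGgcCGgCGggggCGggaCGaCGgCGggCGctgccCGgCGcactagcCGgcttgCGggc
Sgk1: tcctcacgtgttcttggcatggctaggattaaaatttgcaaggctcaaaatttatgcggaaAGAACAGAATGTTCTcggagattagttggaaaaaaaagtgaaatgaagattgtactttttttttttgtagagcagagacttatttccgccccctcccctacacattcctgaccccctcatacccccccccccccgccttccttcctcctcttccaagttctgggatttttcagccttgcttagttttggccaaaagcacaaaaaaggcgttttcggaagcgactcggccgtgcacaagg

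The glucocorticoid response element was searched as AGAACA followed after 3 bases by its reverse complement, TGTTCT, and AGAACA was also searched alone, on both strands. Every full match holds the single site. The full element occurred in the Sgk1 window shown, with its first base at -189 from the start site, and in 2 of 21263 windows of protein-coding genes in all (0.00941%). The single site was found in 3 of the 13 windows, all of Sgk1, against 16.2% of protein-coding windows. The Sgk1 window with the full element had 10 CpG sites, and its nearest region began 4801 bp downstream. A match is a description of letters, not evidence of binding.

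Most regions lay in the gene bodies. Of the 55 regions, 50 overlapped a gene body, 5 lay beside one, and 6 touched the 1 kb around a gene end. Of the 50 regions of genes with an annotated start site, 42 (84.0%) were over 10 kb from the nearest one of their gene, against 74.9% of 56625 placements of regions in other protein-coding genes. The 74.9% covers genes of all lengths and is not matched to these genes. In genes of 0.5 to 2 times the length the share over 10 kb ranged from 36.6% for the length of Crhbp to 93.0% for that of Nr3c2. The 17 regions of Nr3c2 were all that far. For Nr3c2, Crhr1, Hsd11b1 and Oxtr the annotated start site lay inside the gene and not at its upstream end, so distances to it are not distances to that end. Of the 46 regions that could be placed by strand inside a gene, 9 (19.6%) were in the first part of the gene when it was cut into 3 equal parts, 17 (37.0%) in the middle and 20 (43.5%) in the last. Over 54567 placements of regions in 10798 other protein-coding genes these shares were 28.9%, 32.2% and 39.0%. Exons and introns were not assigned, since the annotation used has neither.

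**Figure D2:**
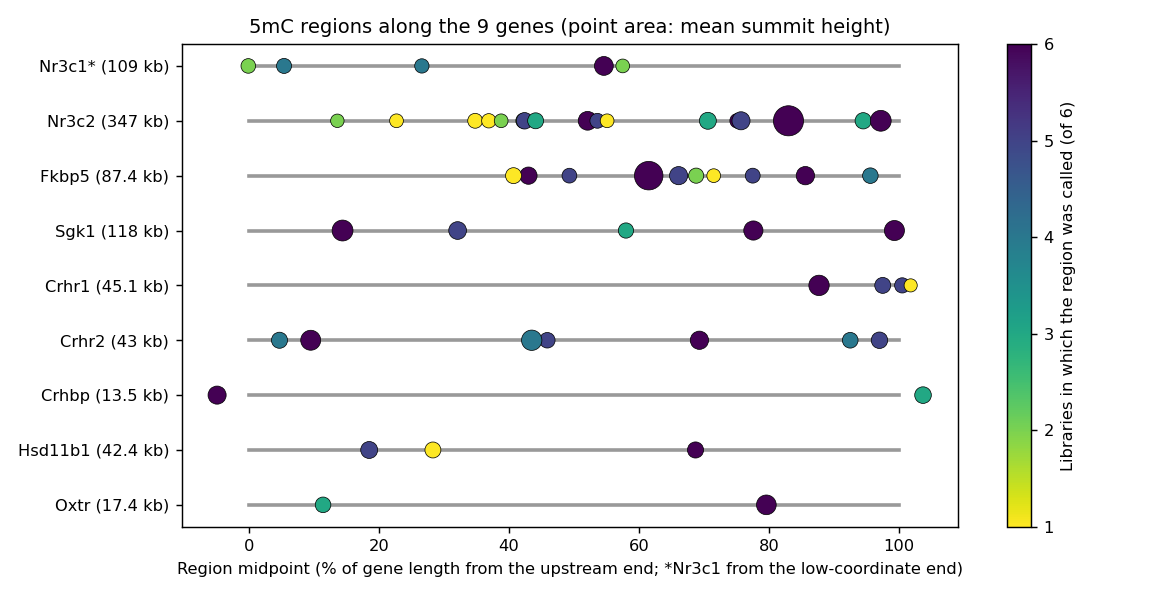
Midpoints of the 55 regions along the 9 genes, as % of gene length from the upstream end (for Nr3c1, whose strand is not in the table used, from the low-coordinate end). Colour gives the number of libraries, of 6, that called the region and point area its mean height over them. In Crhr1 and Fkbp5 the upstream part is empty, and the largest points are in Nr3c2 and Fkbp5.

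The region density of the genes was within the range of other genes. Each gene was set beside the protein-coding genes of 0.5 to 2 times its length. Crhr2 had 7 regions, or 15.6 per 100 kb, more than 86.6% of 6699 such genes. Fkbp5 had 10 regions (11.2 per 100 kb), more than 78.6% of 4356 genes. Crhbp had 2 regions (12.9 per 100 kb, more than 71.4%), Oxtr 2 (10.3, 64.7%), Crhr1 4 (8.50, 63.8%) and Hsd11b1 3 (6.76, 54.1%). Nr3c2 had the most regions, 17 over 346.9 kb, which is 4.87 per 100 kb and more than 50.2% of 1067 genes. Nr3c1 (5 regions, 4.51 per 100 kb) and Sgk1 (5 regions, 4.18 per 100 kb) exceeded 40.5% and 37.9% of genes of like length.

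Of the 55 regions, 17 (30.9%) were called in all 6 libraries, against 20.5% of all active regions, and 8 (14.5%) in a single library, against 29.3%. Each of the 9 genes had at least 1 region called in all 6, as did 35.0% of all protein-coding genes. Among genes of 0.5 to 2 times the length that share was 29.9% for Crhbp, 33.2% for Oxtr, 45.1% to 46.3% for Hsd11b1, Crhr2 and Crhr1, 60.3% for Fkbp5, 64.5% for Nr3c1, 66.1% for Sgk1 and 81.5% for Nr3c2. The mean height of these 17 regions ranged from 11.3 to 54.0 with a median of 21.0, against a median of 24.0 for all regions called in all 6 libraries. The summits of a region lay within 16 to 368 bp of each other over the 6 libraries, with a median of 64 bp against 48 bp for all such regions. The widest spread was at Crhr1, in a region of 945 bp. Without KCl replicate 3, 24 regions (43.6%) were called in all of the other 5 libraries, against 30.6% of the active regions called in any of them.

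**Figure D3:**
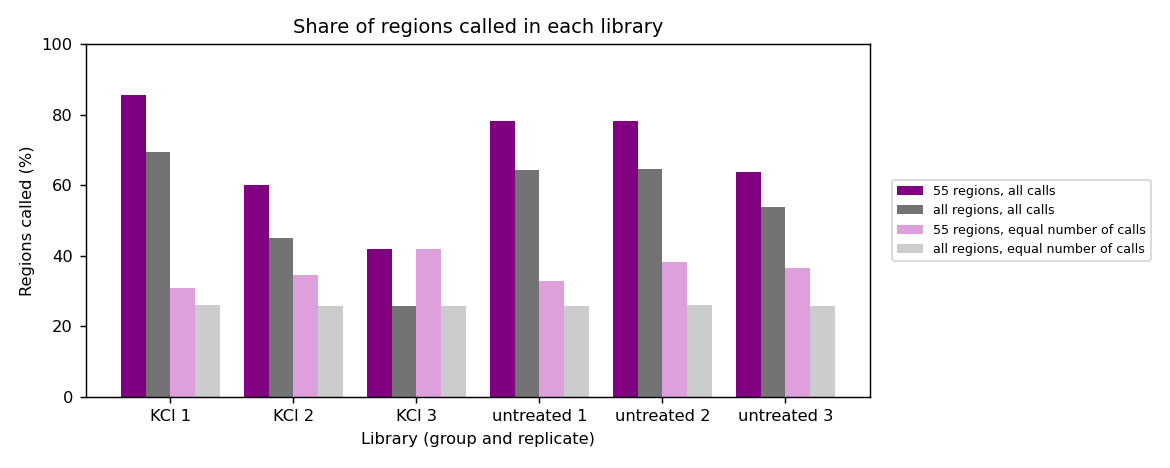
Share of the 55 regions and of all active regions (vertical axis, %) called in each KCl and untreated library (horizontal axis), with all calls and with each library reduced to its 34834 highest intervals. With all calls the 55 regions range from 41.8% to 85.5% over libraries, and all active regions from 25.7% to 69.4%. With equal numbers of calls the 55 regions range from 30.9% to 41.8%, and all active regions from 25.7% to 25.9%.

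KCl replicates 1 to 3 called 85.5%, 60.0% and 41.8% of the 55 regions, and untreated replicates 1 to 3 called 78.2%, 78.2% and 63.6%. The shares of all active regions were 69.4%, 45.0% and 25.7% in the KCl libraries and 64.3%, 64.7% and 53.9% in the untreated libraries. Each library thus called a larger share of the 55 regions than of all regions, and the order followed the number of intervals. When each library kept its 34834 highest intervals, the shares were 30.9%, 34.5% and 41.8% with KCl and 32.7%, 38.2% and 36.4% without, so the groups overlapped. The share of all active regions was then 25.7% to 25.9% in each library. None of the 55 regions was called in all 3 KCl libraries and no untreated library, which 0.0367% of active regions were. None was called in all 3 untreated libraries and no KCl library either, as 1.01% of active regions were. Of the 12 regions called in 5 libraries, 7 were missing from KCl replicate 3, and over all active regions called in 5 it was 80.0%.

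For the comparison with KCl, the height of each region with a call in every library was put on a log2(height + 1) scale and each library was centred on its median. Regions with a mean height of at least 18.67, the 25th percentile, were tested with limma. Changes are therefore relative to the typical region and given as KCl minus untreated. Of the 17 regions, 13 regions of 7 genes passed the filter, and those of Crhbp and Hsd11b1 did not. Of the 13, 0 were called at an adjusted p of 0.05 (limma, Benjamini-Hochberg over 20537 regions), where the background was 0% of all tested regions. Each of the 13 had an adjusted p of 1.00. Limma's unadjusted p was under 0.05 in 2 of the 13, both higher with KCl, against 3.64% of all tested regions (1.97% higher and 1.67% lower). After centring, all KCl values lay above all untreated values in 2 of the 13, where 4.67% of tested regions did so, and below them in 0, where 3.88% did. The 2 were Nr3c2 region 3 and Fkbp5 region 1, and the latter passed the filter only through its KCl heights. Of the 13 relative log2 changes, 11 were above 0 and 2 below, with a median of 0.21, where 51.1% of all tested regions were above 0 with a median of 0.0055. The medians of Nr3c2 and Sgk1 were among the results known when the genes were chosen, and both regions with an unadjusted limma p under 0.05 are of Nr3c2. This lean, these p-values and the count without overlap are therefore no independent evidence. The tested regions set beside the 13 were also not matched to them for height. Without the height filter, 15531 of 27310 regions were above 0 with a median of 0.034, and the median of the 17 regions was 0.219. Whether the lean goes with height was not tested. With heights as deposited, without centring, the median of the 13 was -0.044 and that of all tested regions -0.25.

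**Figure D4:**
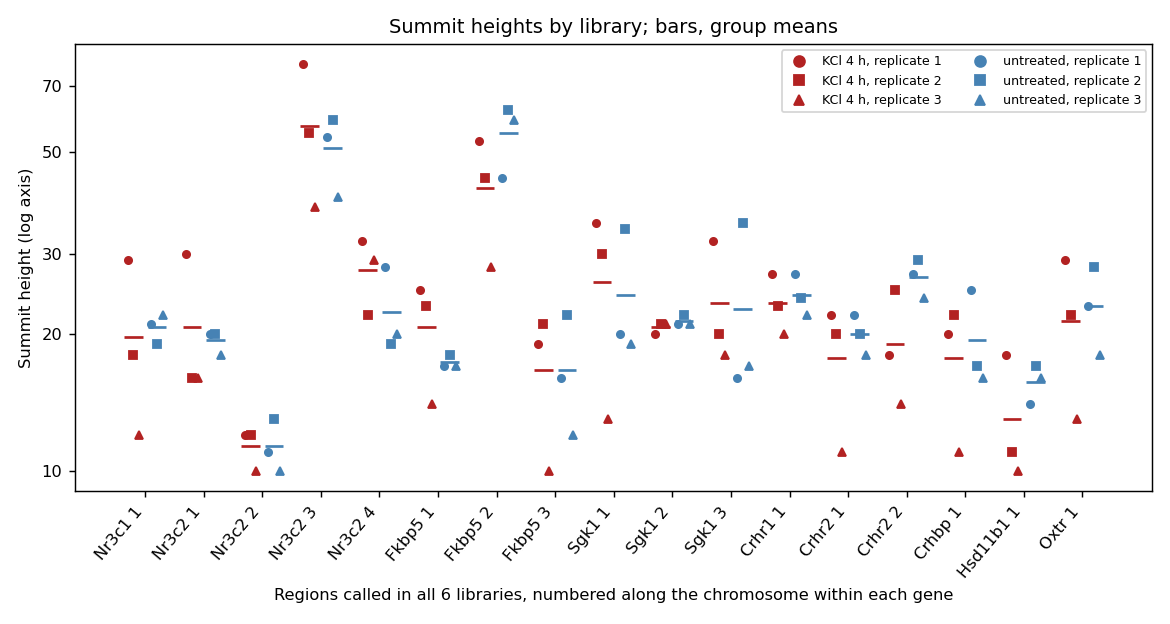
Summit heights (vertical log axis) of the 17 regions called in all 6 libraries, numbered along the chromosome within each gene (horizontal axis); red, KCl libraries, blue, untreated libraries, horizontal bars, group means. KCl replicate 3 is often the lowest point, and the highest values are those of Nr3c2 region 3, up to 78.

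Nr3c2 encodes the mineralocorticoid receptor, which binds corticosterone with high affinity. Its highest region, region 3 of the 4 called in all libraries (chr8:77185713-77186238), had heights of 78, 55 and 38 in KCl replicates 1 to 3, against 54, 59 and 40 in untreated replicates 1 to 3. The groups overlapped in these heights, and KCl replicates 2 and 3 were below the untreated libraries of the same number. After centring, all 3 KCl values lay above all 3 untreated values. The relative log2 change was 0.37 (limma SE 0.14, unadjusted p = 0.0133, adjusted p = 1.00), and it ranged from 0.28 to 0.43 when single libraries were left out. Limma with the replicate number as a block gave an unadjusted p of 0.00788 and an adjusted p of 0.964. The median of Nr3c2 was known when the genes were chosen, so the unadjusted p-values of its regions are descriptions.

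Region 4 (chr8:77235087-77235500), near the downstream end of the gene, had heights of 32, 22 and 29 with KCl, against 28, 19 and 20 untreated. All 3 KCl libraries were above 2 of the 3 untreated libraries, KCl replicate 3 included, and untreated replicate 1 lay within the KCl range. Each KCl library was above the untreated library of the same number. Its relative log2 change of 0.55 was the largest of the 13 (limma SE 0.23, unadjusted p = 0.022, adjusted p = 1.00). With the replicate number as a block, limma gave an unadjusted p of 0.00866 and an adjusted p of 0.966. Leaving out KCl replicate 3 gave 0.32, and leaving out KCl replicate 2 gave 0.76. Region 1 (chr8:77078511-77078969) had heights of 30, 16 and 16 with KCl, against 20, 20 and 18 untreated, so KCl replicate 1 alone was above the untreated libraries. Its relative log2 change was 0.28 (limma SE 0.23), and 0.48 without KCl replicate 2. Region 2 (chr8:77158385-77158670) was low, with heights of 12, 12 and 10 with KCl, against 11, 13 and 10 untreated, and was under the filter. The 13 further regions of Nr3c2 were called in 1 to 5 libraries with heights of 9 to 26.

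Nr3c1 encodes the glucocorticoid receptor, which responds at the higher hormone levels of stress. Its single region called in all libraries, in the gene body at chr18:39469832-39470196, had heights of 29, 18 and 12 with KCl, against 21, 19 and 22 untreated. The KCl heights enclosed the untreated ones, and the relative log2 change was 0.10 (limma SE 0.23). It turned to -0.036 without untreated replicate 2. A region just beyond the low-coordinate end (chr18:39410306-39410520) was called in 2 libraries, at a height of 10 in KCl replicate 3 and 13 in untreated replicate 1. The other 3 regions were called in 2 to 4 libraries at heights of 10 to 15.

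Fkbp5, the co-chaperone that lowers hormone binding of the glucocorticoid receptor and is induced by it, held regions that differed among themselves. Region 2 (chr17:28432120-28432718), the second highest of the 17, had heights of 53, 44 and 28 with KCl, against 44, 62 and 59 untreated. The relative log2 change was -0.17 (limma SE 0.16), from -0.32 to -0.038 with single libraries left out. Region 1 (chr17:28411113-28411613) had heights of 25, 23 and 14 with KCl, against 17, 18 and 17 untreated. KCl replicates 1 and 2 were above the untreated libraries and replicate 3 below them, and after centring all 3 KCl values were above the untreated ones. The mean height of 19.0 was just above the filter of 18.67, with means of 20.67 with KCl and 17.33 untreated. This region thus passed the filter only through its KCl heights, so these values are descriptions. The relative log2 change was 0.45 (limma SE 0.23, unadjusted p = 0.0556, adjusted p = 1.00), and 0.50 without KCl replicate 3. Whether the change differed between regions 1 and 2 was not tested. Region 3 (chr17:28448297-28448862) had heights of 19, 21 and 10 with KCl, against 16, 22 and 12 untreated, overlaps another annotated gene, Gm22146, and was under the filter. The other 7 regions had heights of 9 to 21. The region nearest to the start site, called in untreated replicate 2 alone, was 35431 bp away from it.

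Sgk1 encodes a serum- and glucocorticoid-induced kinase, and its RefSeq gene spans 117.7 kb with 6 start sites. Region 2 (chr10:21973193-21973805), 4867 bp from a start site, was the most even of the 17, with heights of 20, 21 and 21 with KCl, against 21, 22 and 21 untreated. KCl replicate 3, low in most regions, was level with the others here. After centring, the relative log2 change was 0.21 (limma SE 0.24), and 0.001 without that library. Region 1 (chr10:21898809-21899477) had heights of 35, 30 and 13 with KCl, against 20, 34 and 19 untreated, and a relative log2 change of 0.28 (limma SE 0.22), or 0.50 without KCl replicate 3. Region 3 (chr10:21998740-21999357), within 1 kb of the downstream gene end, had heights of 32, 20 and 18 with KCl, against 16, 35 and 17 untreated. The groups overlapped, and the relative log2 change was 0.34 (limma SE 0.23), from 0.15 without untreated replicate 1 to 0.60 without untreated replicate 2. The other 2 regions were called in 5 and 3 libraries.

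**Figure D5:**
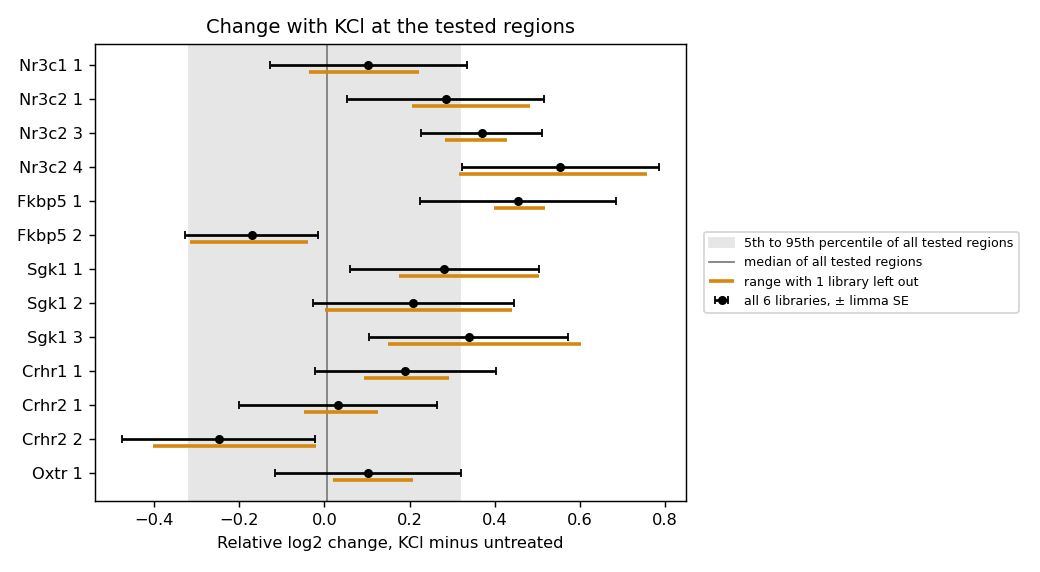
Relative log2 change, KCl minus untreated (horizontal axis), of the 13 tested regions (vertical axis); points with bars are the fit over all 6 libraries ± limma SE, orange lines the range with single libraries left out, and the grey band the 5th to 95th percentile of all 20537 tested regions (-0.32 to 0.32). Of the 13 points, 11 lie right of 0, those of Nr3c2 regions 3 and 4, Fkbp5 region 1 and Sgk1 region 3 right of the band.

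Hsd11b1 encodes the enzyme that regenerates active glucocorticoid from its inert form inside cells. Its annotated start site (chr1:193242360) lies inside the gene, whose upstream end is at 193264045. The region called in all libraries (chr1:193234736-193235073), 7287 bp from that start site, had heights of 18, 11 and 10 with KCl, against 14, 17 and 16 untreated, under the filter. A longer region in the gene, 13498 bp upstream of that start site (chr1:193255858-193256551, 694 bp), had heights of 16 and 13 in KCl replicates 1 and 3, against 18, 18 and 15 untreated. One more was called in KCl replicate 1 alone at a height of 14.

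Crhr1 and Crhr2 encode G protein-coupled receptors of corticotropin-releasing hormone and the urocortins. Crhr1 had all 4 of its regions in the last part of the gene or beyond its end, and the nearest lay 36712 bp from the start site. Region 1 (chr11:104169493-104170437), the longest of the 55 regions, had heights of 27, 23 and 20 with KCl, against 27, 24 and 22 untreated. The relative log2 change was 0.19 (limma SE 0.21), and 0.094 without KCl replicate 3. Beyond the gene end, a region at chr11:104175559-104175977 had heights of 12, 11 and 12 with KCl, against 11 and 17 in untreated replicates 1 and 2. Another at chr11:104176199-104176468 was called in untreated replicate 2 alone at a height of 9.

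Crhr2 had regions at both ends of its body. Region 2 (chr6:55128728-55129167), 3849 bp downstream of the start site, had heights of 18, 25 and 14 with KCl, against 27, 29 and 24 untreated. One KCl library reached the untreated range, and each KCl library was below the untreated library of the same number. With heights as deposited most tested regions were lower with KCl, and 1932 of 20537 had a change above 0. After centring, the groups overlapped at this region. The relative log2 change was -0.25 (limma SE 0.23), or -0.020 without KCl replicate 1, and the replicate block gave an unadjusted p of 0.259 and an adjusted p of 0.984 (limma). Region 1 (chr6:55103075-55103384) had heights of 22, 20 and 11 with KCl, against 22, 20 and 18 untreated, and a relative log2 change of 0.032 (limma SE 0.23). That sign turned without KCl replicate 2 (-0.028) and without untreated replicate 2 (-0.049). In 3 further regions all untreated libraries had a call and KCl replicate 1 was the single KCl library with one. The highest of these (chr6:55114182-55114483) had a height of 19 in KCl replicate 1, against 24, 31 and 21 untreated. A lack of a call in the libraries with fewer intervals gives no height, and these regions were outside the test.

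Crhbp encodes a secreted protein that binds corticotropin-releasing hormone. Its region called in all libraries (chr13:95445205-95445764) lay outside the gene, 374 bp upstream of the start site, and was the nearest to a start site of all regions with a known one. Its heights were 20, 22 and 11 with KCl, against 25, 17 and 16 untreated. The groups overlapped, and its mean height was just under the filter. A second region beyond the downstream end (chr13:95430704-95431056) had a height of 10 in KCl replicate 1, against 22 and 14 in untreated replicates 2 and 3. Both regions of Crhbp thus lay beside the gene and none in its body.

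Oxtr encodes the receptor of oxytocin, a neuropeptide that acts on social behaviour and stress responses. Its region 1 (chr6:112476942-112477512), in the downstream part of the gene, had heights of 29, 22 and 13 with KCl, against 23, 28 and 18 untreated. The relative log2 change was 0.10 (limma SE 0.22), and 0.21 without KCl replicate 3. The region 553 bp downstream of the start site (chr6:112488849-112489272) had a height of 12 in KCl replicate 1, against 14 and 14 in untreated replicates 1 and 2. It was thus called in the libraries with the most intervals and at low heights.

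Further genes of the stress axis had regions about as often as other genes. Of 48 such genes, which include hormones, receptors, chaperones, co-regulators and target genes, 31 (64.6%) had a region in the gene or within 1 kb of it, against 65.3% of protein-coding genes. Among the peptide hormone genes, Crh, Pomc, Oxt, Ucn and Ucn2 had none, and Avp and Ucn3 had 1 each. Of the melanocortin receptor genes, Mc2r had none and Mc4r had 1. Among the chaperone genes, Hsp90aa1 and Hspa8 had none, and Hsp90ab1 and Hspa4 had 2 each. Among the induced targets, Dusp1, Nfkbia and Ddit4 had none, Tsc22d3 and Per1 had 3 each and Zbtb16 had 24. The counts and shares of this list were not set against gene length, so they do not compare these kinds of genes. Co-regulators of nuclear receptors were among the genes with the highest regions. Ncoa2, a coactivator gene, had a region (chr1:13317883-13319154) with heights of 161, 138 and 104 with KCl, against 128, 158 and 118 untreated. A region of the co-repressor gene Ncor1 averaged 66.0 over the 6 libraries. Other regions with high mean heights were in Ncoa3 (47.3), the kinase gene Sgk3 (45.5), Pdk4 (38.2), the vasopressin receptor gene Avpr1b (36.7) and the transcription factor gene Zbtb16 (36.7).

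In these genes 36 regions of 14 genes were tested and 0 were called (limma, adjusted p 1.00 for each), again with 0% of all tested regions called. Of the 36 relative log2 changes, 17 were above 0 and 19 below, with a median of -0.012. The lowest were in Per1 (-0.30, limma SE 0.23), Zbtb16 (-0.26, SE 0.18) and Klf9 (-0.24, SE 0.18). Further tested regions of Per1 and Zbtb16 had values of 0.044 and 0.057. Among the higher values were those of the Ncoa2 region above (0.24, limma SE 0.094, unadjusted p = 0.0162) and of a region of Avpr1b (0.20, SE 0.21). The Ncoa2 region was the single one of the 36 with an unadjusted limma p under 0.05. Whether the changes of the 13 regions of the 9 genes differed from those of these 36 was not tested.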

How the data were processed

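MeDIP-seq of 3 KCl and 3 untreated libraries was analysed. Per the labels' protocols library preparation and data analysis were done by a company, and per the submitters' processing notes BWA, SICER and build mm10 were used; versions, filters and caller settings were not stated in what was at hand. The authors deposited, per the file headers, 1 track of called intervals and 1 of summit heights for each library, and 1 track of active regions. Heights are whole numbers of at least 6 of the signal at the summit, with no stated scaling between libraries, and depth is unknown. Each active region took the highest summit of its intervals in a library.

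The 9 genes and the gene lists were chosen with earlier results of these data known. Regions called in all 6 libraries with a mean height no lower than the 25th percentile were compared as log2(height + 1), centred per library, with limma 3.58.1 in R 4.3.3 (intensity trend, Benjamini-Hochberg over all tested regions, two-sided). Fold changes on this scale understate changes of low regions. All regions called in all 6 libraries are given by value, with those at gene ends; the rest are given by counts. Genes, promoters and CpG counts came from RefSeq tables of GRCm38.p6; all 9 genes matched the gene table and 8 the promoter table. On opposite strands, 1668 of 1668 overlapping promoter pairs matched in sequence. Coordinates are 1-based. The same replicate number correlated at 0.113, 0.108 and 0.114 (deviations from group means), other numbers at -0.088 to -0.014. The latter follow in part from the former, because deviations within a group cancel out. The former were just above the limit of 0.1 used, and nothing in the labels explains the numbers. Whether the numbers pair the libraries is thus not settled. The main fit leaves the number out, and a fit with it as a block was run as well. Python was 3.11.15. Some results of the wider gene list are not reported here.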

Additional observations from a re-analysis of the deposited data

How the results depend on the processing

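With all settings tried (heights as deposited, quantile normalization, pseudocounts of 0 and 5, no filter, a replicate block, calls in at least 2 libraries of each group, and each library left out), limma called 0 regions of the 9 genes and 0 of all tested regions. At an unadjusted p under 0.05, limma gave 405 higher and 342 lower of 20537 regions, and 0 higher and 231 lower with heights as deposited. In this balanced design the replicate block leaves every change as it is, so the median of 0.21 could not move. The block gave a lowest adjusted p of 0.964 (limma) among the 13 regions, so it changed no call. Heights as deposited moved the median of the 13 to -0.044 and turned the sign at Nr3c1 (-0.15), Sgk1 region 2 (-0.044), Crhr1 (-0.063), Crhr2 region 1 (-0.22) and Oxtr (-0.15). With single libraries left out, the median over the regions of the 9 genes then tested ranged from 0.16 to 0.25. These were not always the same 13 regions, and without KCl replicate 3 they were 17. Nr3c1 ranged from -0.036 to 0.22 and Crhr2 region 1 from -0.049 to 0.13. The cause was not tested. The count of 55 regions became 50 without the 1 kb margin, 62 with 5 kb and 38 with summits of at least 15. The number called in all libraries was 16 or 17 under these windows, and 17 to 24 with a library left out. Reducing each library to 34834 intervals moved the shares of the 55 regions called to 30.9% and 34.5% in KCl replicates 1 and 2, and to 32.7%, 38.2% and 36.4% in untreated replicates 1 to 3. The share of all active regions was then 25.7% to 25.9% in each library. Heights near the lowest called values limit what can be seen at most of the 55 regions.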

Other observations

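Just outside the windows, 7 further regions lay between 1 and 5 kb from the 9 genes. The nearest was upstream of Crhbp (chr13:95445990-95446347), 1159 bp from the gene, with heights of 18 and 13 in KCl replicates 1 and 2, against 12, 18 and 13 in the untreated libraries. Together with the region 374 bp upstream of the start site, it places 2 regions in the upstream flank of Crhbp and 0 in its body. Fkbp5 had a region 4974 bp upstream of the gene (chr17:28491123-28491594) with heights of 14 and 11 in KCl replicates 1 and 2, against 12, 14 and 14 untreated. It had another 4941 bp beyond the downstream end (chr17:28393432-28393812), with 10 and 10 in the same KCl libraries, against 15, 18 and 15 untreated. All 3 regions were called in 5 libraries and missing from KCl replicate 3. The other 4 regions, 2 near Nr3c2 and 1 each near Sgk1 and Hsd11b1, were called in a single library.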
